A study of Mus musculus with 8 samples.

Results

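The RNA exosome genes were followed through 8 libraries of mouse embryo RNA. The set held 10 genes, Exosc1, Exosc2, Exosc3, Exosc4, Exosc5, Exosc7, Exosc8, Exosc9, Exosc10 and Dis3, out of 24732 genes in the table. They were chosen by name, as subunits of one complex, because Exosc9 was listed at 0 in CX45. That value and its contrasts are therefore given as a description, without a test. All 10 genes were among the 11832 that were tested, those with 1 FPKM or more in at least 2 libraries. FPKM scales the fragments of a transcript by its length and by library depth, so levels can be compared between genes.

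All embryos were of strain C57BL/6, and each of the groups CX45, 8C, CX22 and 2C had 2 libraries. The name 8C was taken to mean the 8-cell stage and 2C the 2-cell stage. What CX45 and CX22 stand for is not spelled out in the labels, which also named no control, gave no genotype or agent, and did not say how many embryos went into a library. By its title, the series asks how RNA polymerase I activity bears on the folding of embryonic chromatin. Libraries were made by Smart-seq, which amplifies full-length cDNA from small samples.

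The RNA exosome is a multi-protein machine that trims and degrades RNA from its 3′ end. Its core is a ring of 6 proteins closed by a cap of 3 RNA-binding proteins. In human cells these are catalytically inert, and RNA is cut by the nucleases DIS3 and EXOSC10, bound to the core. In the nucleus the complex matures ribosomal and small nuclear RNA and removes faulty transcripts. In the cytoplasm it degrades messenger RNA. Early mouse embryos replace the RNA stored in the oocyte with RNA of their own, so RNA decay and synthesis overlap at these stages.

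Exosome transcripts were more abundant in CX45 and 8C than in CX22 and 2C. The 10 genes summed to 972 and 873 FPKM in CX45, to 1296 and 1068 FPKM in 8C, to 278 and 180 FPKM in CX22, and to 256 and 249 FPKM in 2C. The sums of CX45 and 8C did not overlap those of CX22 and 2C. As a share of all FPKM, the sum came to 0.151% and 0.137% in CX45 and to 0.187% and 0.159% in 8C, against 0.0489% and 0.0374% in CX22 and 0.0462% and 0.0527% in 2C. In bulk RNA like this, fewer cells of a type and less RNA per cell cannot be told apart.

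Library depth, as implied by the steps between low FPKM values, lay between 9640000 and 20120000 fragments, and 8C was deepest. A count of 3 fragments on a 2 kb transcript was worth 0.0746 to 0.156 FPKM. Genes of the oocyte and 2-cell stage summed to between 2156 and 2818 FPKM in CX22 and 2C, and to 27.4 and 30.1 FPKM in 8C. The 2C libraries differed by little more than sampling noise. They were averaged and counted as 1 sample, so their means carry no SD. The CX22 libraries stood further apart than any other pair, with 331 genes above 10 FPKM in 1 library and at 0 in the other, against 15 genes for 8C. P-values measure only the spread between libraries, which may be technical. Gapdh, a glycolysis enzyme of every cell, was listed at 0 in 4 libraries and at up to 0.519 FPKM in the others. An exact 0 can thus be a failed estimate, and a gene at 0 is said only to be listed at 0.

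**Figure D1:**
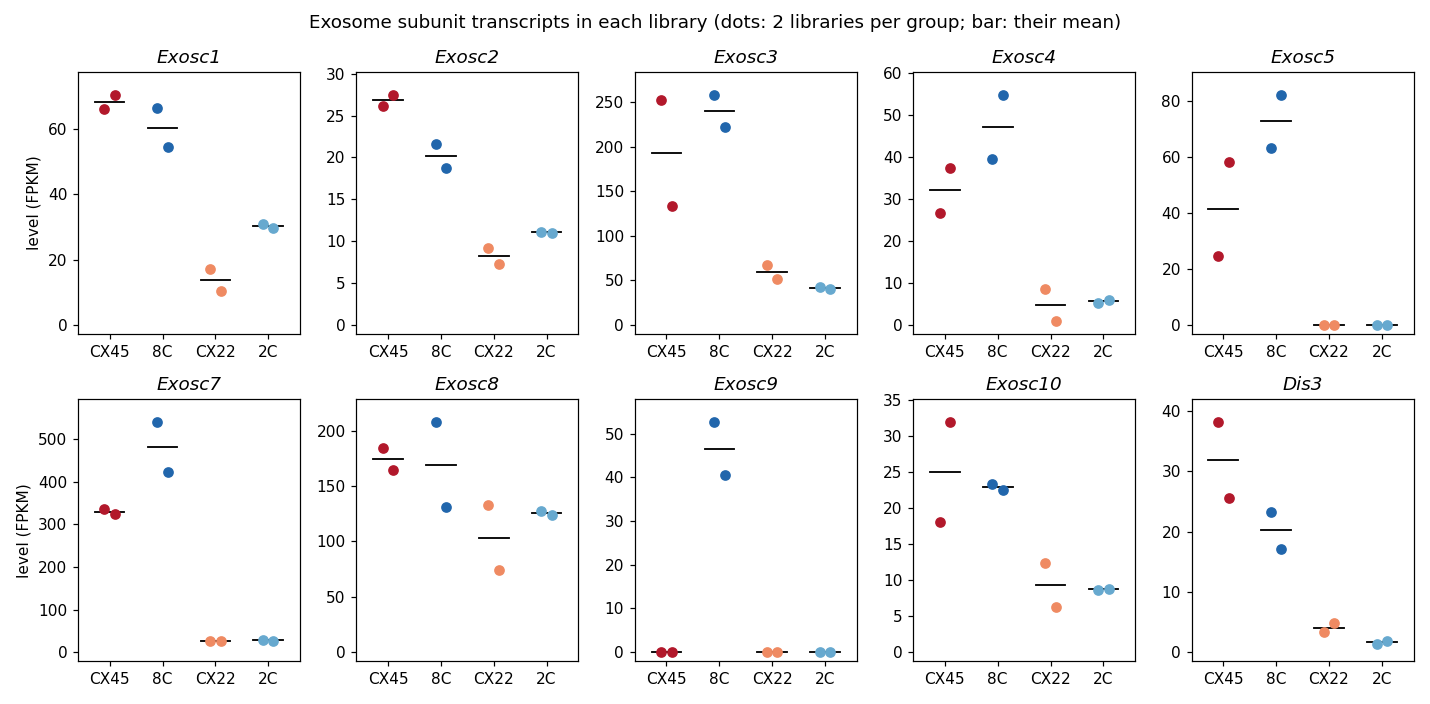
Level in FPKM of each exosome gene in CX45, 8C, CX22 and 2C. Each panel has its own axis, dots are the 2 libraries of a group and bars their mean; Exosc9 is above 0 in 8C (52.6 and 40.5 FPKM) and listed at 0 in the other 6 libraries.

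Exosc1, Exosc2 and Exosc3 encode the cap, which guides RNA towards the central channel. Exosc3 was the most abundant of the cap genes in each library. It had 253 and 134 FPKM in CX45, 258 and 222 FPKM in 8C, 67.2 and 51.1 FPKM in CX22, and 42.7 and 40.8 FPKM in 2C. The CX45 libraries differed from each other the most, and the higher of them lay within the range of 8C. Exosc1 had 66.2 and 70.4 FPKM in CX45, 66.3 and 54.5 FPKM in 8C, 17.3 and 10.3 FPKM in CX22, and 30.8 and 29.7 FPKM in 2C. Both CX22 libraries were below both 2C libraries. Exosc2 had 26.2 and 27.5 FPKM in CX45, 21.6 and 18.7 FPKM in 8C, 9.14 and 7.29 FPKM in CX22, and 11.08 and 11.01 FPKM in 2C. For Exosc2 none of the 4 groups overlapped another, as was so for Exosc7 and Dis3, and how often this held over all genes was not counted.

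Among the ring genes, Exosc7 had the highest level in CX45 and 8C. It had 335 and 324 FPKM in CX45, 540 and 424 FPKM in 8C, 26.9 and 25.3 FPKM in CX22, and 29.2 and 27.2 FPKM in 2C. Its levels thus formed a high pair of groups and a low pair. Exosc8 had 184 and 164 FPKM in CX45, 208 and 131 FPKM in 8C, 133 and 73.8 FPKM in CX22, and 127 and 124 FPKM in 2C. The CX45 libraries of Exosc8 fell inside the range of 8C, and the 2C libraries fell inside the range of CX22.

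Exosc4 was low and uneven in CX22. It had 26.6 and 37.3 FPKM in CX45, 39.5 and 54.7 FPKM in 8C, 8.57 and 0.970 FPKM in CX22, and 5.25 and 6.00 FPKM in 2C. The CX22 libraries differed by 8.84 times, the widest gap between replicates among the 10 genes, and enclosed the 2C values. Exosc5 had 24.6 and 58.2 FPKM in CX45 and 63.3 and 82.3 FPKM in 8C, and the table lists it at 0 for both libraries of CX22 and of 2C. On this transcript 3 fragments would be worth between 0.146 and 0.305 FPKM. Exosc5 and Exosc9 were the only exosome genes listed at 0 in any library.

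Exosc9 was above 0 in 8C alone, with 52.6 and 40.5 FPKM there, and the table lists it at 0 for both libraries of CX45, CX22 and 2C. These 8C levels correspond to about 1509 and 1317 fragments. On its transcript of 1617 bases, 3 fragments would be worth 0.0922 to 0.192 FPKM. Of the other 9 genes of the set, the lowest in CX45 was Exosc10, with 18.1 FPKM in its lower library. Of 3422 genes with at least 10 FPKM in both 8C libraries, 6 were listed at 0 in both CX45 libraries and 5 in all 6 other libraries. Of the same 3422 genes, 54 were listed at 0 in both CX22 and both 2C libraries. Exosc9 is itself among the genes of each of these counts. Its 0 in CX45 chose the set, so nothing is read from them.

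In the deposited table Exosc9 lies on chromosome 3 at 36451528 to 36464649 in build mm9, with 1 transcript entry. It overlaps the neighbouring gene Ccna2, which encodes the cell cycle regulator cyclin A2, by 863 bases. Ccna2 had 302 and 191 FPKM in CX45, 195 and 157 FPKM in 8C, 206 and 166 FPKM in CX22, and 121 and 122 FPKM in 2C. It was thus present in all libraries where Exosc9 was listed at 0. No strand setting is given in the sources used here, and reads of the shared bases cannot be told apart. The 3 genes most like Exosc9 by Pearson correlation of log2(FPKM + 1) over the 8 libraries were Kremen2, Eif3j1 and Gjb5, each with r = 1.0 after rounding. Eif3j1 had 14.6 and 12.6 FPKM in 8C, Kremen2 3.01 and 2.70 FPKM, and Gjb5 1.25 and 1.16 FPKM, and all were listed at 0 elsewhere. A pattern of 2 libraries above 0 and 6 at 0 fixes such a correlation, and the libraries of a group share their group.

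The nucleases were less abundant than the leading core genes. Dis3, which cuts RNA at the exit of the channel, had 38.2 and 25.7 FPKM in CX45, 23.3 and 17.1 FPKM in 8C, 3.35 and 4.78 FPKM in CX22, and 1.41 and 1.82 FPKM in 2C. The groups of Dis3 ran from CX45 down to 2C with no overlap between any of them. Exosc2 and Exosc7 also had no overlap between any groups. How often this held over all genes was not counted, so nothing is read from it. Between 8C and 2C alone, 8C lay above without overlap for 43.3% of all genes tested and below for 46.5%. In 2C and in CX22 replicate 2 its level rests on another transcript entry than in the other libraries. Exosc10, the nuclear nuclease, had 18.1 and 32.0 FPKM in CX45, 23.4 and 22.6 FPKM in 8C, 12.4 and 6.35 FPKM in CX22, and 8.68 and 8.79 FPKM in 2C. Here CX45 enclosed 8C, and CX22 enclosed 2C.

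Between 8C and 2C, which the choice of genes did not use, 5 of the 10 exosome genes were called as higher in 8C and 0 as lower. At an unadjusted p under 0.05, limma had 6 as higher, Exosc9 included, and 0 as lower. Of all 11832 genes tested, 2611 were higher and 3198 lower in this way. The ring gene Exosc7, the cap gene Exosc3 and the nuclease Dis3 rose. The other called genes, the ring genes Exosc5 and Exosc9, were listed at 0 in both 2C libraries, which can be a failed estimate. Of all genes tested, 37.0% were called in this comparison, 16.4% as higher in 8C and 20.7% as lower. Calls needed a limma p, adjusted after Benjamini-Hochberg, under 0.05 and a difference of at least 1 in log2(FPKM + 1). The median difference was 2.67 over the 10 exosome genes and -0.03 over all genes tested. It does not turn on the size fitted to Exosc5 and Exosc9, which were listed at 0 in 2C and rank above it. It does turn on counting them. Without Exosc9, which met the filter through 8C alone and so had to differ, the middle value was that of Exosc3, 2.49.

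Exosc7 averaged 482 ± 82.3 FPKM in 8C (SD, n = 2) and 28.2 FPKM in 2C, a 17.1-fold ratio of means. On the log2 scale it differed by 4.04 (SE 0.25, limma adjusted p = 0.0020). Dis3 averaged 20.2 ± 4.37 FPKM in 8C (SD, n = 2) and 1.61 FPKM in 2C, and differed by 3.01 (SE 0.46, limma adjusted p = 0.0104). Its signal stood on different transcript entries in 8C and in 2C. Exosc3 averaged 240 ± 25.6 FPKM in 8C (SD, n = 2) and 41.7 FPKM in 2C, and differed by 2.49 (SE 0.46, limma adjusted p = 0.0162). Exosc5 was called (limma adjusted p = 0.0039), and no fold is given against a group listed at 0. Exosc9 met the filter on low values through 8C alone and so had to differ, which leaves 4 of the 9 other genes. Without either 8C library the count fell to 2, Exosc5 and Exosc7. Dis3 then had limma adjusted p-values of 0.0592 and 0.0700 and Exosc3 of 0.0783 and 0.0863, while Exosc9 no longer met the filter.

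The other 5 exosome genes did not pass. Exosc4 had the largest difference of these, 2.84 (SE 0.99, limma adjusted p = 0.0828), and it passed in a fit without both CX22 libraries (limma adjusted p = 0.0119). Exosc10 differed by 1.30 (limma adjusted p = 0.127), Exosc1 by 0.97 (limma adjusted p = 0.110) and Exosc2 by 0.81 (limma adjusted p = 0.113). Exosc8 was the most even, with a difference of 0.39 (SE 0.48, limma adjusted p = 0.549) that was -0.02 after rescaling to TPM and -0.22 after quantile normalization. In FPKM both 8C libraries were above both 2C libraries for all 10 genes, as was so for 43.3% of all genes tested (46.5% were below), although the mean difference of Exosc8 turned with those scalings. Exosc9, which had to differ through the filter, is counted among the 10.

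**Figure D2:**
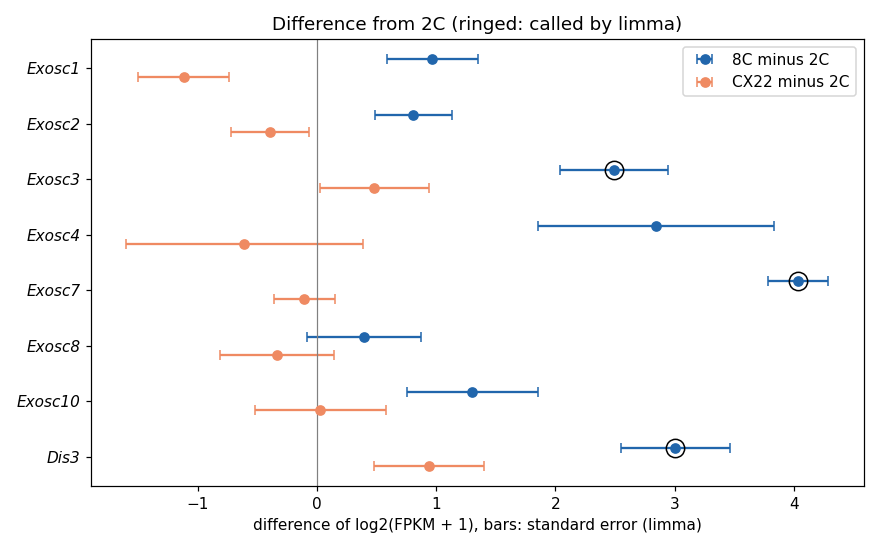
Difference in log2(FPKM + 1) from 2C of 8 exosome genes, for 8C (upper dot) and CX22 (lower dot), with standard errors from limma; Exosc5 and Exosc9, listed at 0 in 2C, are not drawn. Rings mark the called genes Exosc3, Exosc7 and Dis3, all in 8C; the small Exosc8 difference in 8C (0.39) was -0.02 in TPM and -0.22 after quantile normalization.

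Between CX22 and 2C, 0 of the 10 exosome genes were called by limma, against 3.85% of all genes tested (0.6% as higher in CX22, 3.25% as lower). At an unadjusted p under 0.05, 0 were higher and 1 was lower, against 606 and 1304 of all 11832 genes tested. The lower gene was Exosc1. It averaged 13.8 ± 4.90 FPKM in CX22 (SD, n = 2) and 30.3 FPKM in 2C, a difference of -1.12 (SE 0.38, limma adjusted p = 0.258). With the 2C libraries as 2 samples Exosc1 passed (limma adjusted p = 0.0494), and on its highest transcript entry alone the difference turned to 0.27 (limma adjusted p = 0.851). The median difference was -0.05 over the exosome genes and -0.07 over all genes tested. Both CX22 libraries were above both 2C libraries for Exosc3 and Dis3 (21.2% of all genes tested) and below them for Exosc1, Exosc2 and Exosc7 (33.3% of all genes tested).

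Dis3 differed by 0.94 (SE 0.46, limma adjusted p = 0.444) and averaged 4.06 ± 1.009 FPKM in CX22 (SD, n = 2) and 1.61 FPKM in 2C. Exosc3 differed by 0.48, Exosc2 by -0.39 and Exosc7 by -0.11, with none called. For Exosc4 (-0.61), Exosc8 (-0.34) and Exosc10 (0.03) the CX22 libraries enclosed the 2C libraries. In CX22, 7 exosome genes were higher in replicate 1 and 1 in replicate 2, while 39.6% of all genes tested were higher in replicate 1. In 8C these counts were 8 and 2, against 44.7% of all genes tested. They were 4 and 5 in CX45 and 5 and 3 in 2C. Nothing particular to CX22 is read from this.

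The comparisons of CX45 are given as values only, since Exosc9 in CX45 chose the set. Between CX45 and 8C, 1 exosome gene passed the thresholds for a call, Exosc9, with 0.659% of all genes tested called (0.456% as higher in CX45, 0.203% as lower). Its 0 in CX45 chose the set and it met the filter through 8C alone, so nothing is read from that count, which was 0 under 10 of the alternatives. Both CX45 libraries were above both 8C libraries for Exosc2 and Dis3, and below them for Exosc4, Exosc5, Exosc7 and Exosc9. Of all genes tested, 40.4% were above and 16.6% below in this way. Exosc9, which had to be below, is counted among the exosome genes below. Exosc7 averaged 330 ± 8.06 FPKM in CX45 and 482 ± 82.3 FPKM in 8C, and Exosc5 41.4 ± 23.7 FPKM in CX45 and 72.8 ± 13.4 FPKM in 8C (SD, n = 2 each). Dis3 averaged 31.9 ± 8.86 FPKM in CX45 and 20.2 ± 4.37 FPKM in 8C, and Exosc2 26.8 ± 0.928 FPKM in CX45 and 20.2 ± 2.01 FPKM in 8C (SD, n = 2 each). Of the cap and ring genes, only Exosc2 was above 8C without overlap. Its difference was 0.40, and 0.063 after quantile normalization. The median difference was -0.16 over the exosome genes and 0.31 over all genes tested. Without Exosc9, whose 0 in CX45 chose the set, the middle value was that of Exosc10, 0.07. The sign of the exosome median thus turned on counting Exosc9.

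Genes of the oocyte and 2-cell stage, 9 in number, summed to 166 and 369 FPKM in CX45, against 27.4 and 30.1 FPKM in 8C. Blood markers summed to 301 and 367 FPKM in CX45, against 13.3 and 32.0 FPKM in 8C. In CX45 this was mostly 1 haemoglobin gene, Hba-a1, with 286 and 347 FPKM. The other haemoglobin gene, Hbb-bs, was listed at 0 in all 8 libraries, and Ptprc reached at most 0.0701 FPKM. Lyz2 had 9.61 and 7.45 FPKM in CX45 and was listed at 0 in 8C, but had 10.2 and 11.8 FPKM in CX22. Cd68 had 5.38 and 12.7 FPKM in CX45, and was also above 0 in 8C, with 2.96 and 3.21 FPKM. Cumulus cell markers stayed below 1 FPKM in sum in these 4 libraries, and 4 of the 9 were listed at 0 in all 8 libraries. Sperm markers summed to 0 and 4.91 FPKM in CX45 and were listed at 0 in 8C. The part of these RNAs in the exosome values was not tested.

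Against CX22, the call rule took 7 exosome genes as higher in CX45: Exosc1, Exosc2, Exosc3, Exosc4, Exosc5, Exosc7 and Dis3. Of all genes tested 36.6% were called there, 23.1% as higher and 13.5% as lower. Both CX45 libraries were above both CX22 libraries for 9 exosome genes and below them for 0, against 41.5% and 23.5% of all genes tested. The share of calls that were higher in CX45 was 63.1%, and 49.2% after quantile normalization. Against 2C, 4 exosome genes were called as higher in CX45, Exosc3, Exosc5, Exosc7 and Dis3, with 29.8% of all genes tested called (16.3% as higher, 13.6% as lower). Both CX45 libraries were above both 2C libraries for 9 exosome genes and below them for 0, against 47.3% and 38.2% of all genes tested. With the 2C libraries as 2 samples the count against 2C was 8, and without both CX22 libraries it was 7. The comparisons of 8C and of CX45 with 2C share the 2C libraries, so their values are set side by side only.

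The make-up of the exosome transcript pool also differed between the groups. Exosc7 was its largest part in CX45 (34.5% and 37.1%) and 8C (41.7% and 39.7%). Exosc8 was the largest in CX22 (47.9% and 41.0%) and 2C (49.6% and 49.7%). Exosc3 held 26.0% and 15.3% of the pool in CX45 libraries, 19.9% and 20.8% in those of 8C, 24.2% and 28.4% in those of CX22, and 16.6% and 16.4% in those of 2C. The Exosc3 share differed most between the replicates of CX45. Dis3 was a small part everywhere, at 3.93% and 2.94% in CX45 libraries, 1.80% and 1.60% in those of 8C, 1.21% and 2.65% in those of CX22, and 0.550% and 0.729% in those of 2C.

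**Figure D3:**
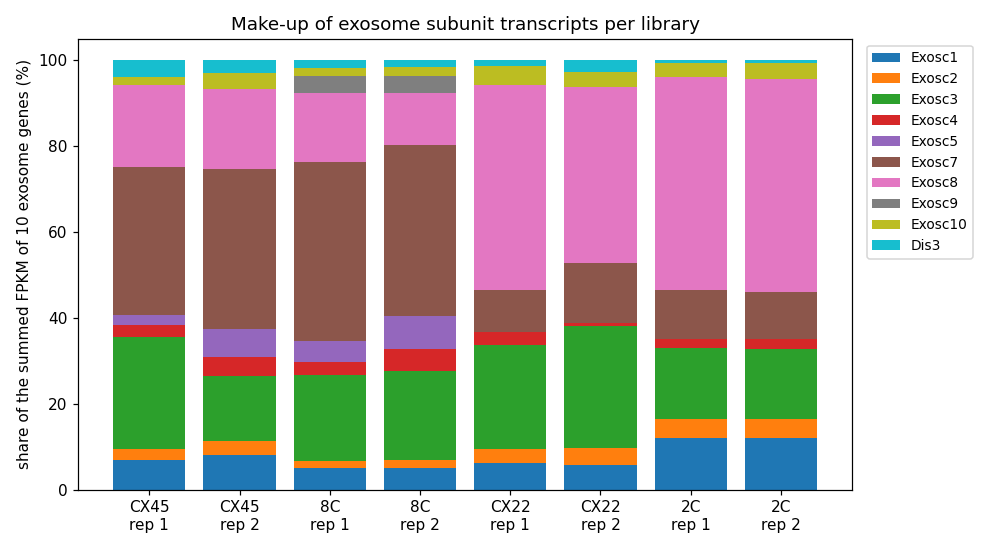
Share of each exosome gene in the summed FPKM of the 10 genes, in percent, with 1 bar per library of CX45, 8C, CX22 and 2C. Exosc7 is the largest part in CX45 and 8C (34.5% to 41.7%) and Exosc8 in CX22 and 2C (41.0% to 49.7%).

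In structures of the human complex the ring is built of pairs, EXOSC7 with EXOSC6, EXOSC8 with EXOSC5 and EXOSC4 with EXOSC9. Exosc6, which is outside the set, had 11.7 and 11.6 FPKM in CX45, 9.37 and 9.89 FPKM in 8C, 3.01 and 0.0623 FPKM in CX22, and 7.03 and 7.81 FPKM in 2C. It was not called between 8C and 2C (difference 0.34, limma adjusted p = 0.785). The ratio of Exosc7 to Exosc6 was 28.7 and 27.95 in CX45 libraries, 57.7 and 42.9 in those of 8C, 8.95 and 407 in those of CX22, and 4.16 and 3.48 in those of 2C. The second CX22 value rests on an Exosc6 level below the worth of 3 fragments on a 2 kb transcript.

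The ratio of Exosc8 to Exosc5 was 7.49 and 2.82 in CX45 and 3.28 and 1.59 in 8C, while Exosc5 was listed at 0 in CX22 and 2C. Exosc4 and Exosc9 had ratios of 0.751 and 1.35 in 8C, close to equal. In the other groups Exosc9 was listed at 0, and Exosc4 was above 0 in each library.

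**Figure D4:**
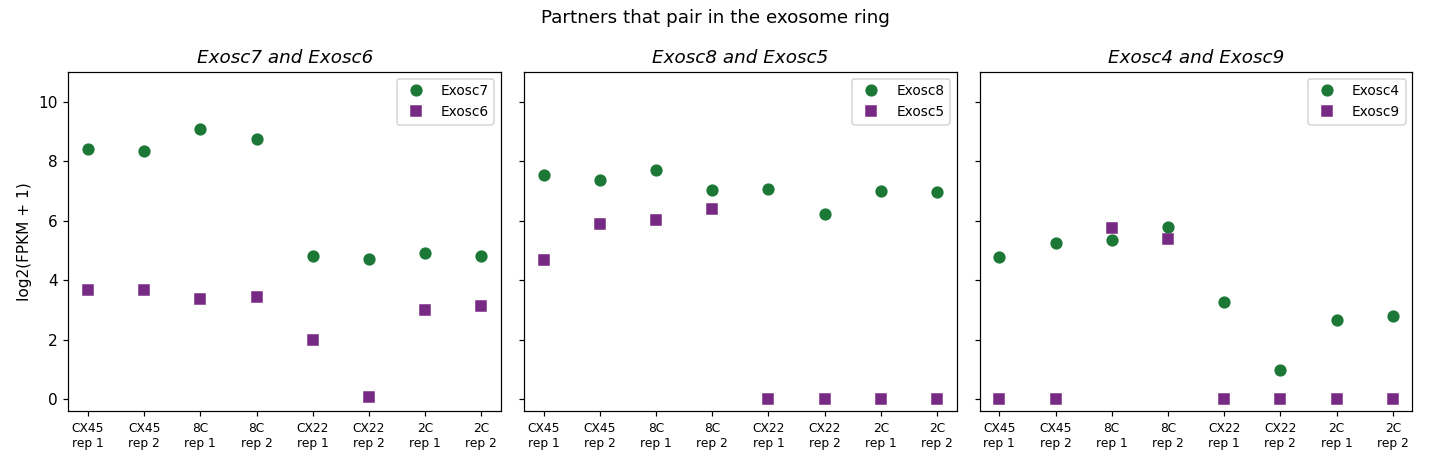
Levels of the 3 partner pairs of the exosome ring, in log2(FPKM + 1), with 1 position per library of CX45, 8C, CX22 and 2C. Exosc7 stands above Exosc6 in all libraries, Exosc5 is listed at 0 in CX22 and 2C, and Exosc9 is above 0 in 8C alone.

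Several exosome genes had more than 1 transcript entry, and the entry with signal differed between groups. Dis3, on chromosome 14 at 99475853 to 99498989 in mm9, had 4 entries, of which NM_028315 and NM_001360051 were above 0. NM_028315 held the whole signal in CX45, in 8C and in CX22 replicate 1. NM_001360051 held it in CX22 replicate 2 and in both 2C libraries. No library had both. Entries of a gene share most of their sequence, and which of them receives the reads is an estimate.

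Exosc1, on chromosome 19 at 41997470 to 42007804, had 5 entries, of which 3 were above 0. NM_025644 had 54.7 and 58.5 FPKM in CX45, 66.3 and 54.5 FPKM in 8C, 17.3 and 10.3 FPKM in CX22, and 11.2 and 10.6 FPKM in 2C. NM_001320232 had 11.5 and 11.9 FPKM in CX45 and 11.7 and 14.3 FPKM in 2C, with 0 listed for 8C and CX22. NM_001320231 had 7.88 and 4.85 FPKM in 2C and 0 in the other groups. Exosc1 in 2C was thus spread over 3 entries, and in 8C and CX22 it stood on 1. When NM_025644 alone stood for the gene, Exosc1 rose in 8C against 2C by 2.36 (limma adjusted p = 0.0148), and its difference between CX22 and 2C turned to 0.27.

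Exosc3, on chromosome 4 at 45329485 to 45333488, had 2 entries. NM_025513 held 57.2% and 84.3% of the gene in CX45 libraries, 65.3% and 74.4% in those of 8C, 55.6% and 65.0% in those of CX22, and 28.3% and 34.5% in those of 2C. It was the larger entry in every group except 2C. Exosc10, on the same chromosome at 147932528 to 147956509, stood on NM_016699 in 7 libraries, and in CX45 replicate 2 a second entry, NR_131061, added 5.21 FPKM. Exosc2 (chromosome 2, 31526235 to 31536872), Exosc4 (chromosome 15, 76157827 to 76161100) and Exosc7 (chromosome 9, 123022349 to 123045247) had 1 entry each. Exosc5 (chromosome 7, 26444172 to 26453051) and Exosc8 (chromosome 3, 54532601 to 54539286) had 2 entries each, of which 1 was above 0.

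**Figure D5:**
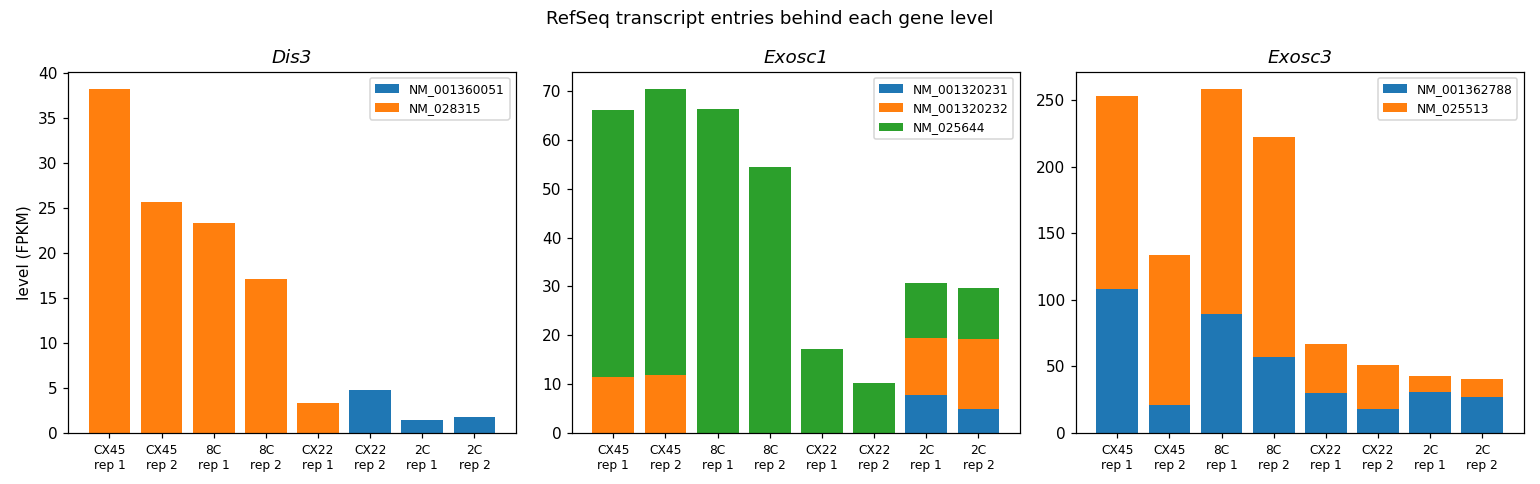
Level in FPKM of the transcript entries of Dis3, Exosc1 and Exosc3, stacked, with 1 bar per library of CX45, 8C, CX22 and 2C. Dis3 stands on NM_001360051 in 2C and CX22 replicate 2 and on NM_028315 in the other libraries, and Exosc1 has 3 entries above 0 in 2C.

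Promoter windows from 250 bases before to 50 after the start were found for 8 of the 10 genes, in 9 windows, from RefSeq in build GRCm38.p6. Those of Exosc5, Exosc7 and Exosc8 are shown because they belong to ring genes with unlike levels: Exosc5, listed at 0 in CX22 and 2C, Exosc7, with the largest called ratio of means in 8C, and Exosc8, the most even. Capitals mark matches on either strand to a GC box, a CCAAT box or a core of the NRF1 site. The GC box was searched as GGGCGG. The CCAAT box was searched by the letters of its name. The letters searched for NRF1 were GCGCATG.
Exosc5: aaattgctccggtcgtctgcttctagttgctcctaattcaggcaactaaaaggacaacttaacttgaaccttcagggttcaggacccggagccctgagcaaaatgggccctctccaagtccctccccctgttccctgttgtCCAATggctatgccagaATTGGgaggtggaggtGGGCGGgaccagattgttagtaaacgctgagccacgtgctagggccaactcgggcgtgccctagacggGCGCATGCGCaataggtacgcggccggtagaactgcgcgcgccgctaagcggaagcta
Exosc7: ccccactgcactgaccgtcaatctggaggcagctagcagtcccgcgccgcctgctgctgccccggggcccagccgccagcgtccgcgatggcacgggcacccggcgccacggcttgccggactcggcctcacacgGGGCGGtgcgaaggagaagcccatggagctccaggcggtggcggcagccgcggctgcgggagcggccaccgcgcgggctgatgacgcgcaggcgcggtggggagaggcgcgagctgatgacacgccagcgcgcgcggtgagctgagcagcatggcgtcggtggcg
Exosc8: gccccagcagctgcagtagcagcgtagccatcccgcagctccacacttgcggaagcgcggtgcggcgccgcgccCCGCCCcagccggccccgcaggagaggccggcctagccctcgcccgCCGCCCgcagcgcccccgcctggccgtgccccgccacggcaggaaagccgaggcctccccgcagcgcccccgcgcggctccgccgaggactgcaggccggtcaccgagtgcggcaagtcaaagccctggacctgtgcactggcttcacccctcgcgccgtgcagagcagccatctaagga

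These windows lie on the plus strand at chr7:25658903-25659202 (Exosc5) and chr9:123112981-123113280 (Exosc7), and on the minus strand at chr3:54735315-54735614 (Exosc8). The GC content was 57.3% for Exosc5, 75.3% for Exosc7 and 75.7% for Exosc8, against a median of 52.7% over 32851 windows. A GC box was found in 7 of the 9 exosome windows and in 35.7% of all windows of this length. CCAAT was found in 4 of 9 and in 37.4% of all, GCGCATG in 2 of 9 (Exosc5 and Exosc10) and in 3.91% of all, and the ETS letters CCGGAAG in 3 of 9 (Exosc3, Exosc10 and Dis3) and in 8.86% of all. The TATA letters TATAAA were in 0 of 9 and in 13.6% of all. In the Exosc5 window GCGCATG was matched on both strands over the same stretch, with 4 bases shared. Exosc5 and Exosc7 thus share the GC box with Exosc8, whose levels were the most even. A match describes letters in the window and is not a measured site.

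Genes that work with the exosome are set here beside all genes tested between 8C and 2C, of which 16.4% were called as higher in 8C and 20.7% as lower, with a median difference of -0.03. Of 16 partners in the nucleus, which deliver RNA to the complex, all were tested, 1 rose in 8C and 3 fell, with a median difference of 0.04, so calls were not more frequent than over all genes. Mphosph6, an exosome cofactor in ribosomal RNA maturation, had 337 and 325 FPKM in 8C, against 13244 and 12613 FPKM in 2C, and fell by 5.28 (limma adjusted p = 0.0022). In CX45 it had 322 and 451 FPKM, and in CX22 9746 and 14145 FPKM, so its high and low groups were the reverse of those of Exosc7.

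Tent4a, a poly(A) polymerase that tags nuclear RNA, had 1.09 and 1.54 FPKM in 8C, against 186 and 192 FPKM in 2C, and fell by 6.37 (limma adjusted p = 0.0036). Pabpn1, a nuclear poly(A) binding protein, fell by 2.56 (limma adjusted p = 0.00785), with 70.7 and 67.8 FPKM in 8C and 403 and 424 FPKM in 2C. Ncbp2, a subunit of the nuclear cap-binding complex, was the nuclear partner that rose. It had 206 and 200 FPKM in 8C, against 23.8 and 22.8 FPKM in 2C, a difference of 3.07 (limma adjusted p = 0.0023).

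Of 5 partners in the cytoplasm 4 were tested, and 1 rose and 1 fell, against 16.4% and 20.7% of all genes tested. Both belong to the Ski complex, which feeds messenger RNA to the exosome. Wdr61 had 266 and 259 FPKM in 8C, against 17.7 and 18.6 FPKM in 2C, and rose by 3.78 (limma adjusted p = 0.0020). Ttc37 had 1.44 and 0.445 FPKM in 8C, against 19.6 and 18.7 FPKM in 2C, and fell by 3.42 (limma adjusted p = 0.0398). The median difference over the list was 0.01.

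Of 16 factors of the decay route that starts at the other end of messenger RNA, 15 were tested, 4 rose and 4 fell, with a median difference of 0.93, against 16.4% higher, 20.7% lower and a median of -0.03 over all genes tested. Nothing particular to the list is read from this. Lsm5, of the ring that binds deadenylated RNA, had 360 and 346 FPKM in 8C, against 7.64 and 8.23 FPKM in 2C, and rose by 5.31 (limma adjusted p = 0.0046). Dcp2, the decapping enzyme, had 2.42 and 1.71 FPKM in 8C, against 50.8 and 50.6 FPKM in 2C, and fell by 4.09 (limma adjusted p = 0.0039). Its cofactor Dcp1a fell by 3.15 (limma adjusted p = 0.0215), and Lsm7, of the same ring as Lsm5, fell by 2.05 (limma adjusted p = 0.0191). The exosome subunits outside the set, Exosc6 and Dis3l, a cytoplasmic relative of Dis3, were not called, nor did either reach an unadjusted p under 0.05.

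Between CX22 and 2C, limma called 0 genes of the nuclear, cytoplasmic and decapping lists. At an unadjusted p under 0.05, 1 nuclear partner was higher and 1 lower, 0 cytoplasmic partners passed, and 1 decapping-route gene was higher and 2 were lower. Of all 11832 genes tested, 606 were higher and 1304 lower in this way, and 3.85% were called. Ncbp2 came nearest to a call, with 67.5 and 58.5 FPKM in CX22, against 23.8 and 22.8 FPKM in 2C, a difference of 1.39 (limma adjusted p = 0.0525). Both CX22 libraries of Ncbp2 were above both 2C libraries. Zcchc7, a zinc finger protein of the nuclear polyadenylation complex, had 2.55 and 6.94 FPKM in CX22, against 23.2 and 23.2 FPKM in 2C, a difference of -2.19 (limma adjusted p = 0.210). Lsm5 had 0.204 and 1.98 FPKM in CX22, against 7.64 and 8.23 FPKM in 2C, a difference of -2.24 (limma adjusted p = 0.145).

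Stage genes and markers of other cells were read from the same fit. Of 9 oocyte and 2-cell genes, 7 fell in 8C against 2C, and of 9 genes of later cleavage, 6 rose and 1 fell. Dppa2, a chromatin protein of early embryos, had 635 and 831 FPKM in 8C, against 14.7 and 16.1 FPKM in 2C. Bmp15, an oocyte growth factor, had 0.808 and 2.72 FPKM in 8C, against 750 and 724 FPKM in 2C. Between CX22 and 2C, limma called 0 oocyte and 2-cell genes (0 at an unadjusted p under 0.05) and 1 cleavage gene, Sox2, as lower. Of 3 cumulus markers tested, Star and Adamts1 fell in 8C and Star fell in CX22, each against 2C. Sox2, Star and Adamts1 met the filter on low values through 2C alone. They had to be lower elsewhere, so nothing is read from their calls. None of 2 sperm and 3 blood markers tested was called in either comparison, and at an unadjusted p under 0.05 Hba-a1 was lower in 8C and Lyz2 higher in CX22. Sperm markers summed to 42.9 and 32.9 FPKM in CX22 and to 19.6 and 18.7 FPKM in 2C. The CX22 sums came from different genes. In replicate 1 it was mostly Tnp1, with 42.2 FPKM, which was listed at 0 in every other library. In replicate 2 it was mostly Prm2, with 28.7 FPKM, against 0.655 FPKM in replicate 1. Cumulus cell markers summed to 0.0638 and 6.14 FPKM in CX22 and to 7.21 and 7.33 FPKM in 2C. Blood markers summed to 33.7 and 90.2 FPKM in CX22 and to 109 and 109 FPKM in 2C. The part of these RNAs in the exosome values was not tested.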

How the data were processed

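Transcripts were measured by Smart-seq in 8 libraries, 2 per group. Per the submitters' processing notes, HISAT2 (4.8.2), Cufflinks (2.2.1) and build mm9 were used; settings and annotation release were not given in the sources. The authors deposited FPKM, 1 value per RefSeq transcript entry and library, with replicates not pooled. Of 41876 entries, 41685 matched a symbol and were summed per gene, which gave 24732 genes; the 191 others held 0.065% to 0.253% of a library's FPKM.

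The filter kept 11832 genes, those reaching 1 FPKM in 2 or more libraries. log2(FPKM + 1) of the deposited values was fitted over all 4 groups with limma 3.58.1 in R 4.3.3, with trended moderation, two-sided, and Benjamini-Hochberg adjustment over all genes tested. Differences on this scale understate the change of low genes. Over 1689 genes the chi-square of the 2C libraries was 1.13 times its chance median (26.93 in 8C, 101.23 in CX22, 46.18 in CX45), so they were averaged as 1 of 7 samples. That lone sample is assumed to vary like the others. The fit was tested on simulated data with the same noise in all groups. The spread of these libraries differed between groups, so nothing is read from that test. Implied depths rest on 69.3% to 75.8% of low values lying within 0.05 of whole fragments, and cover counting error only.

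The members and gene lists were chosen with earlier results of these data known. Named genes were the 10 members, up to 4 genes per list with the smallest p, genes whose entries lie within 5 kb of Exosc9, and the 3 genes most correlated with it. Alternatives changed the pseudocount, filter, scaling, use of entries, replicate block and libraries. Promoters came from RefSeq (GRCm38.p6), and no coordinates were converted between builds.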

Additional observations from a re-analysis of the deposited data

Results flagged for a closer look

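Exosc2, a cap gene, differed in opposite directions in 2 comparisons. Between CX22 and 2C both CX22 libraries were lower, as for 33.3% of all genes tested. Its difference in log2(FPKM + 1) there was -0.39 and was not called (limma adjusted p = 0.720). Between CX45 and 8C it was 0.40, with both CX45 libraries higher, as for 40.4% of all genes tested, whose median difference was 0.31. After quantile normalization the CX45 difference was 0.063, and that between CX22 and 2C was -0.37. The difference between these comparisons was not tested.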

How the results depend on the processing

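Values of single exosome genes were compared over the alternatives, leaving out Exosc5 and Exosc9 between CX22 and 2C (0 in both groups) and fits without a library of another group. Of these tested values 180 kept their direction and their side of the threshold, 5 crossed it upwards, 4 crossed it downwards and 7 turned. Exosc8 between 8C and 2C was -0.021 in TPM and -0.22 after quantile normalization. Between CX22 and 2C, Exosc1 was 0.27 on its highest entry alone, and Exosc10 was -0.011 in TPM. Leaving out either CX22 library gave -1.75 to 0.53 for Exosc4, -0.76 to 0.082 for Exosc8 and -0.41 to 0.46 for Exosc10. The cause of these turns was not tested. TPM moved the median difference of all genes between 8C and 2C by -0.35.

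With the 2C libraries as 2 samples, which adds a residual degree of freedom, calls over all genes were 6679 (4382 with them averaged) between 8C and 2C, 1606 (456) between CX22 and 2C, 1037 (78) between CX45 and 8C, and 6085 (3530) between CX45 and 2C. Exosome calls were then 1 (0) between CX22 and 2C and 8 (4) between CX45 and 2C. Between CX22 and 2C all calls were 241 after quantile normalization. Between CX45 and 8C they were 183 with a pseudocount of 0.1 FPKM, and both all calls and exosome calls were 0 without the filter, after quantile normalization and without both CX22 libraries. That last alternative, chosen after seeing the data, gave 7 exosome calls between CX45 and 2C. 

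Leaving out 1 library in turn, with a group left at 1 library assumed to vary like the others, gave, between 8C and 2C, 1333 to 5666 calls over all genes and 2 to 6 exosome calls. The ranges were 0 to 1015 and 0 to 0 between CX22 and 2C, 0 to 63 and 0 to 1 between CX45 and 8C, 2327 to 4582 and 4 to 7 between CX45 and CX22, and 1551 to 4983 and 3 to 7 between CX45 and 2C. 

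Same-numbered deviations of the replicates correlated between -0.00073 and 0.108. With 2 libraries per group, this cannot tell whether libraries of the same number were paired. With the replicate block, calls between CX22 and 2C were 120, those between CX45 and 8C were 0 over all genes and 0 over exosome genes, and exosome calls between 8C and 2C were 5. With 2 libraries per group and 3 residual degrees of freedom, moderate differences can go uncalled.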
